A study of Mus musculus with 8 samples.

Results

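Glycolysis was examined in CD73+ photoreceptor cells from the retina at postnatal day 8 (P8) through 10 genes that stand for steps from glucose to lactate. These were the hexokinases Hk1 and Hk2, the phosphofructokinases Pfkm and Pfkp, the aldolases Aldoa and Aldoc, the dehydrogenase Gapdh, the pyruvate kinase Pkm and the lactate dehydrogenases Ldha and Ldhb. A probe was taken where the accession in its annotation belonged to any of these genes, which gave 21 of the 56605 probes that were not controls, and 10 of the 22911 genes named on the microarray. The comparison was between 4 arrays labelled Lpcat1 heterozygous (HZ), which served as control, and 4 labelled Lpcat1 KO, all from mice with C57BL/6 given as strain. The knockout was global, so it was present in every retinal cell type, and the line had been crossed to remove the rd8 allele. Photoreceptor cells were enriched from dissociated retina with an antibody to CD73, the product of Nt5e, and magnetic beads.

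Photoreceptor cells are known for aerobic glycolysis, in which most glucose is turned to lactate although oxygen is present. Hexokinase traps glucose in the cell, phosphofructokinase makes the committed step, aldolase splits the sugar, and GAPDH and pyruvate kinase lead to pyruvate, which lactate dehydrogenase reduces to lactate. Several steps have isozymes, which are products of separate genes that catalyze the same reaction, and mature photoreceptors are known to use HK2 and the M2 form of pyruvate kinase.

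Each value is the log2 signal of a probe minus the 75th percentile of its array, so 0 is the level that 75% of spots did not exceed. All 21 probes were well above background on all 8 arrays, and all were among the 34306 probes tested with limma. The stricter thresholds of the methods, an adjusted p under 0.05 with a fold over 1.2, called 0 of the 10 genes, against 0% of all tested probes. The looser thresholds, an adjusted p under 0.5 with a fold over 1.5, also called 0 of the 10, against 1.04% of all tested probes. At an unadjusted p under 0.05 the count was 1 of 10 genes (Pfkp), against 8.17% of all tested probes. The groups did not overlap for 1 of 10 genes, again Pfkp, against 6.33% of all tested probes. With the replicate number as a block, which paired the arrays, 2 of 10 genes (Pfkp and Pkm) had an unadjusted p under 0.05, against 11.9% of all tested probes in that fit. The looser thresholds then called 1167 probes in place of 357, or 3.4%, and 0 of the 10 genes. The count of 357 ranged from 0 to 1714 when single arrays were left out.

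The probe of Lpcat1, the targeted gene, gave -0.81, -0.95, -1.02 and -1.17 on HZ replicates 1 to 4 and -0.97, -1.16, -1.11 and -0.85 on KO replicates 1 to 4, a difference of -0.037 (standard error 0.11, adjusted p = 0.931). The groups overlapped, so this probe is no check of the labels. Its place relative to the deleted part was not analysed here. Genotypes are those of the labels throughout. The markers of the labelled cell type were detected. All 12 rod markers were well above background on all 8 arrays, with Nrl, the transcription factor of rod fate, between 6.94 and 7.30. On KO arrays 11 of the 12 were lower, at a median of -0.16, and the mean deviation of the list overlapped between -0.059 to 0.28 on HZ and -0.18 to 0.070 on KO arrays. All 8 cone markers were well above background on all 8 arrays too. On KO arrays 1 of the 8 was lower, at a median of 0.24 for the list. The mean deviation of the cone list ran from -1.13 to 0.81 on HZ and from -0.28 to 0.49 on KO arrays, so it varied widely among HZ arrays. Markers of other cells were detected too. Of 13 tested markers of the retinal pigment epithelium (RPE) 13 were lower on KO arrays, and the mean deviation of the list lay between 0.050 and 1.39 on HZ arrays and between -1.52 and -0.16 on KO arrays. Of 10 microglia markers 10 were higher, with ranges of -0.90 to 0.38 on HZ and 0.015 to 0.86 on KO arrays that overlapped. Of 8 bipolar cell markers 7 were lower and of 3 tested red blood cell markers 3 were higher, and both lists overlapped. The part of these lists in the differences below was not tested. In such cell preparations, fewer cells of a type and less RNA per cell cannot be told apart. KO arrays were in slide row 1 and HZ arrays in slide row 2, so genotype and place on the slide cannot be told apart either.

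The median standard error of the difference was 0.13 for the 10 genes, against 0.15 over all tested probes. Over all 8 arrays the standard deviation ran from 0.068 for Aldoa to 0.36 for Ldhb. On KO arrays 5 of the 10 genes were lower and 5 higher, at a median difference of 0.0026, against 0.0023 over all tested probes. The median size of the difference, without its sign, was 0.12, against 0.14 over all tested probes. With the percentile taken over probes above background, or with normexp background correction, 6 were lower, and in the authors' own values 4 were lower. The standard errors of the 10 genes ranged from 0.080 to 0.24, and every gene but Pfkp had a 95% confidence interval that included 0.

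**Figure D1:**
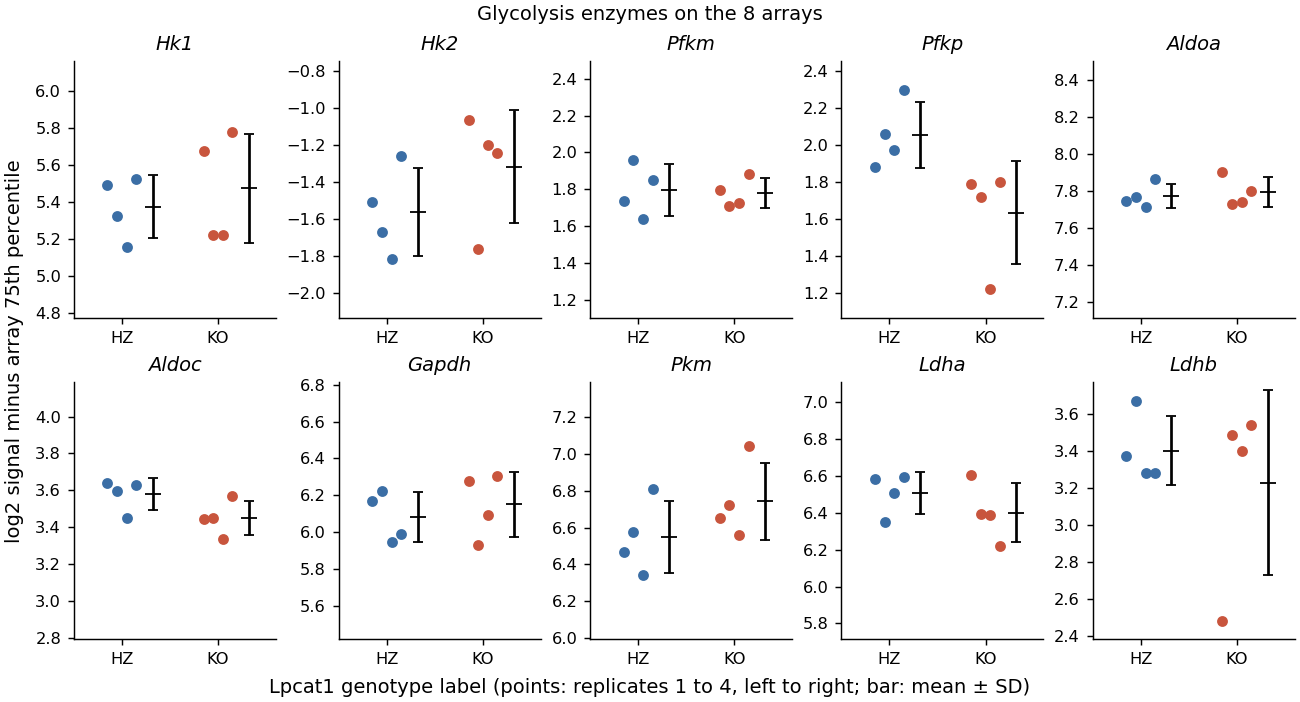
Each panel shows a glycolysis gene, with the log2 signal minus the 75th percentile of the array on the y axis, at the same span in each panel, and the genotype label on the x axis. Points are arrays in the order of the replicate number, and bars are the mean and SD of 4 arrays. The groups were apart for Pfkp, with 1.88 to 2.30 on HZ and 1.22 to 1.80 on KO arrays.

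At the first step, Hk1, the hexokinase of most tissues, gave 5.49, 5.32, 5.16 and 5.53 on HZ replicates 1 to 4 and 5.68, 5.22, 5.22 and 5.78 on KO replicates 1 to 4. The groups overlapped, and the difference was 0.099 (standard error 0.16, adjusted p = 0.868). A further Hk1 probe, to another transcript record, lay between -5.19 and -4.55 and differed by 0.16 (standard error 0.14). Hk2, the hexokinase associated with high glycolytic flux, gave -1.51, -1.67, -1.82 and -1.26 on HZ and -1.07, -1.76, -1.20 and -1.24 on KO arrays. Replicate 2 of KO lay within the HZ range and the other KO arrays above the highest HZ array. The Hk2 difference was 0.25 (standard error 0.18, 95% confidence interval -0.17 to 0.66, adjusted p = 0.727), which spans changes from -10.8% to 57.9%.

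For the phosphofructokinases the groups overlapped for Pfkm and were apart for Pfkp. Pfkm, the muscle type, gave 1.73, 1.96, 1.64 and 1.85 on HZ and 1.80, 1.71, 1.72 and 1.88 on KO arrays, with every KO array inside the HZ range. The difference was -0.016 (standard error 0.096, adjusted p = 0.969). Pfkp, the platelet type, gave 1.88, 2.06, 1.98 and 2.30 on HZ and 1.79, 1.72, 1.22 and 1.80 on KO arrays. Every KO array was below every HZ array, and KO replicate 3 was the lowest by a clear margin. The difference was -0.42 (standard error 0.16, 95% confidence interval -0.78 to -0.059), a change of -25.3%, and it did not pass adjustment over all probes (adjusted p = 0.566). Without KO replicate 3 it was -0.28, and without HZ replicate 4, the highest array, it was -0.34. In both of these, and without HZ replicate 2, the unadjusted p was over 0.05. The further Pfkp probe, to another transcript record, gave 0.055, -0.16, -0.23 and 0.33 on HZ and -0.083, -0.53, -0.18 and 0.18 on KO arrays. These groups overlapped, with a difference of -0.15 (standard error 0.18, adjusted p = 0.817). The RPE marker score was 1.39, 0.050, 0.75 and 0.71 on HZ replicates 1 to 4. On KO replicates 1 to 4 it was -0.16, -0.77, -0.46 and -1.52. This score was lower on KO, as Pfkp was. Most rod and bipolar cell markers were lower on KO too. The part of these lists in the Pfkp difference was not tested.

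Aldoa, the muscle type of aldolase, had the least spread between arrays of the 10 genes. It gave 7.75, 7.77, 7.71 and 7.86 on HZ and 7.90, 7.73, 7.74 and 7.80 on KO arrays. The groups overlapped and the difference was 0.021 (standard error 0.080, 95% confidence interval -0.16 to 0.21, adjusted p = 0.949). Aldoc, the brain type, which is also a marker of Müller glia and astrocytes, was read by 2 probes of 10 spots each. The brighter gave 3.64, 3.60, 3.45 and 3.63 on HZ and 3.44, 3.45, 3.34 and 3.57 on KO arrays, lower on KO in 4 of 4 pairs of arrays with the same number. The ranges overlapped, with a difference of -0.13 (standard error 0.087, adjusted p = 0.713), and the dimmer probe differed by 0.035 (standard error 0.099). The 10 spots of the brighter probe had a standard deviation of 0.033 to 0.16 within an array, against 0.088 between HZ arrays and 0.095 between KO arrays. The score of the other Müller glia and astrocyte markers overlapped between the labels, at -0.33 to 0.50 on HZ and -0.27 to 0.40 on KO arrays.

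Gapdh, which oxidizes glyceraldehyde phosphate and is widely used as a reference gene, was read by 6 probes to the same transcript record. The brightest to be reported gave 6.17, 6.22, 5.95 and 5.99 on HZ and 6.28, 5.93, 6.09 and 6.30 on KO arrays. The groups overlapped, and the difference was 0.068 (standard error 0.12, adjusted p = 0.874). Over the 6 probes the difference ran from -0.12 to 0.14, with 4 higher and 2 lower on KO.

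Pkm, the pyruvate kinase of non-liver tissue, gave 6.47, 6.58, 6.34 and 6.81 on HZ and 6.65, 6.72, 6.56 and 7.04 on KO arrays. It was higher on KO in 4 of 4 pairs of arrays with the same number, but the groups overlapped, with a difference of 0.19 (standard error 0.14, adjusted p = 0.727). With the replicate number as a block the adjusted p was 0.406, and with normexp background correction the difference turned to -0.13. The further Pkm probe differed by 0.097 (standard error 0.13). Both carry the same transcript record, so the M1 and M2 splice forms were not separated here.

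For lactate dehydrogenase, Ldha, the subunit associated with lactate production, gave 6.58, 6.35, 6.51 and 6.59 on HZ and 6.60, 6.39, 6.39 and 6.22 on KO arrays. The groups overlapped, with a difference of -0.11 (standard error 0.11, adjusted p = 0.786), and the further Ldha probe differed by 0.0033 (standard error 0.096). Ldhb, the subunit of oxidative tissue, gave 3.37, 3.67, 3.28 and 3.28 on HZ and 2.48, 3.49, 3.40 and 3.54 on KO arrays. KO replicate 1 was far below the other 7 arrays. The difference was -0.17 (standard error 0.24, adjusted p = 0.844) and turned to 0.076 without KO replicate 1. On that array the further Ldhb probe gave 0.79, inside the range of 0.58 to 1.22 of all arrays, and this probe differed by 0.057 (standard error 0.14).

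**Figure D2:**
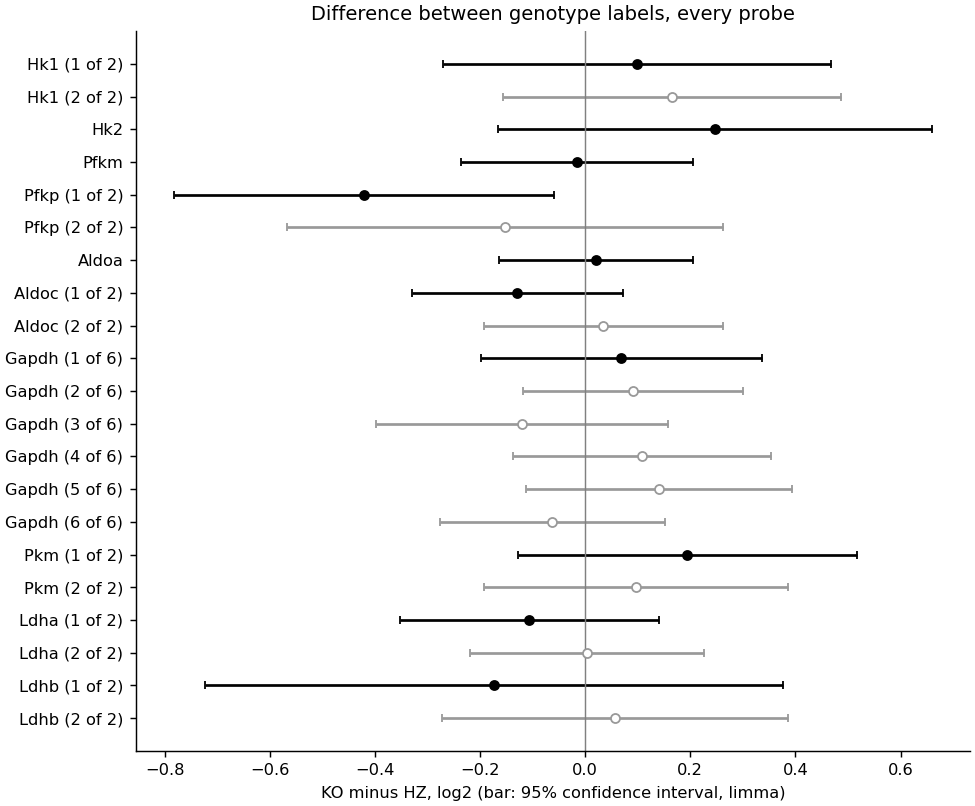
The x axis gives the log2 difference, KO minus HZ, for each of the 21 probes on the y axis, with bars for the 95% confidence interval from limma. Filled points are the probes by which the genes are reported. The interval of the reported Pfkp probe, from -0.78 to -0.059, was the only one that did not include 0.

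Levels of isozymes were not ranked, since the signals of different probes on an array are not on a common scale. Probes of the same gene could read far apart, in part to different transcript records. The 2 Hk1 probes were 10.3 log2 units apart, and the probes of Pkm, Ldha, Ldhb, Gapdh, Pfkp and Aldoc differed by 2.87, 2.51, 2.48, 2.25, 1.92 and 1.77 units. A level read by a probe is thus no measure of how much of an isozyme there was. What can be compared between genotypes is the within-array difference of an isozyme pair.

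**Figure D3:**
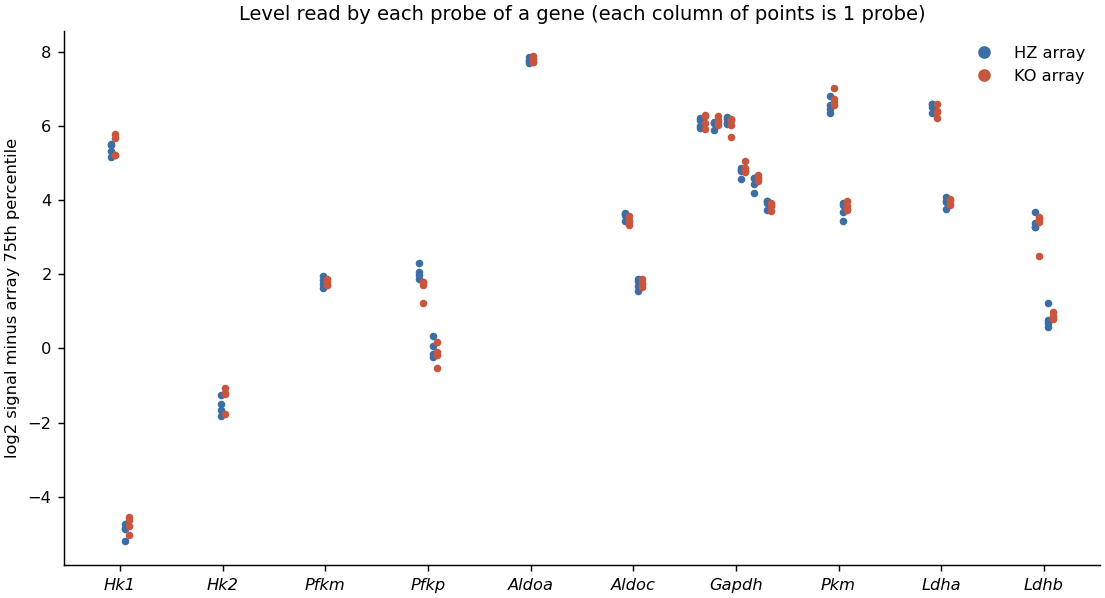
The y axis gives the log2 signal minus the 75th percentile of the array, and each column of points on the x axis is a probe, with HZ and KO arrays side by side. Probes of a gene lay up to 10.3 units apart, while the standard deviation of a probe over the 8 arrays was at most 0.36.

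Of 4 isozyme pairs, the difference between Pfkp and Pfkm was the one that separated the labels. Since Pfkm differed by -0.016, this rests on the Pfkp probe already described and is no separate result. Pfkp minus Pfkm was 0.15, 0.099, 0.34 and 0.45 on HZ replicates 1 to 4 and -0.0066, 0.0071, -0.51 and -0.081 on KO replicates 1 to 4. Every KO array was below every HZ array, with a change of -0.40 (standard error 0.15, two-sided exact permutation test, p = 0.0286, the smallest that 4 arrays against 4 allow, and 0.114 adjusted over the 4 pairs). With the replicate number as a block the exact p was 0.125, the smallest that 4 pairs allow. With the mean of the probes of each gene the change was -0.27 (exact p = 0.0857), and with normexp correction it was -0.26 (exact p = 0.400). Aldoc minus Aldoa changed by -0.15 (exact p = 0.0857), Hk2 minus Hk1 by 0.15 (exact p = 0.371) and Ldhb minus Ldha by -0.067 (exact p = 0.914), and the labels overlapped in each of these. Aldoc minus Aldoa reached the smallest p, 0.0286 in the exact test, with quantile normalization (-0.24), with normexp correction (-0.20) and without KO replicate 4 (-0.19).

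**Figure D4:**
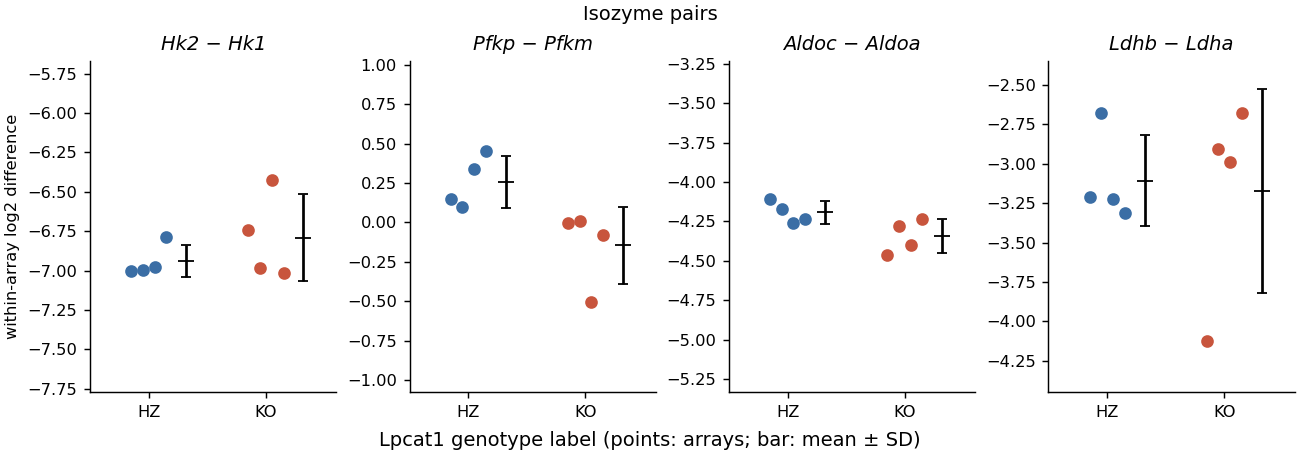
The y axis gives the log2 signal of an isozyme minus that of its partner on the same array, at the same span in each panel, and the x axis the genotype label, with points for arrays and bars for the mean and SD of 4 arrays. The groups were apart for Pfkp minus Pfkm, with 0.099 to 0.45 on HZ and -0.51 to 0.0071 on KO arrays.

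The arrays differed in the general level of these genes. Averaged over the 10 genes, the deviation from the mean of all arrays was 0.014, 0.041, -0.12 and 0.11 on HZ replicates 1 to 4 and 0.012, -0.083, -0.097 and 0.12 on KO replicates 1 to 4. HZ replicate 3 was the lowest HZ array in 7 of 10 genes, and 5 of 10 with normexp correction, while KO replicate 4 was the highest KO array in 7. As a description over 8 arrays, the genes whose signal went most closely with Hk2 were Prxl2c (Pearson's r = 0.984), Marf1 (0.956) and Katnal1 (0.948), and with Ldha they were Ubr2 (0.954), Sbf1 (0.951) and Slc4a9 (0.948). These values share the scaling of each array and come from a search over all named genes tested.

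Promoter windows of the genes are shown for the member whose groups did not overlap (Pfkp), for the hexokinase with the larger difference of the pair described (Hk2) and for Ldha, whose window held the most matches. They are the 250 bases before an annotated start, from RefSeq on GRCm38.p6, read 5′ to 3′ in the direction of the gene. Capitals mark matches on either strand to ACGTG, the core that hypoxia-inducible factors bind, to the E-box CACGTG, which contains that core, or to TAATCC, bound by homeodomain factors such as CRX.
Hk2, chr6:82774455-82774704, minus strand: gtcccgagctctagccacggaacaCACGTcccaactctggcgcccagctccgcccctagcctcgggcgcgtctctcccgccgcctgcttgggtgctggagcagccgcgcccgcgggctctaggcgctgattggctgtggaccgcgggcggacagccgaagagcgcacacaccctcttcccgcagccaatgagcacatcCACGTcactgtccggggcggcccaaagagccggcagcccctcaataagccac
Pfkp, chr13:6648772-6649021, minus strand: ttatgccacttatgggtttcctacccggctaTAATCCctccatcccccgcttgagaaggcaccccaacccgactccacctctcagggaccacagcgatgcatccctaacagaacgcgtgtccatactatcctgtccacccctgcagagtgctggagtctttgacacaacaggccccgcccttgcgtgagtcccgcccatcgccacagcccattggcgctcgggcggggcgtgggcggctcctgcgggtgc
Ldha, chr7:46845554-46845803, plus strand: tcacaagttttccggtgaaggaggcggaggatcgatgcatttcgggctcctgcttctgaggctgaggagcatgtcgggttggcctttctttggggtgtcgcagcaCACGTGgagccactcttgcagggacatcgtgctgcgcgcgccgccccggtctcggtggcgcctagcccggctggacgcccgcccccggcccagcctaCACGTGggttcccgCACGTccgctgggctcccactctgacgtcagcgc

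In the Ldha window ACGTG occurred 5 times with both strands counted, of which 4 fall in 2 E-boxes, which read the same on both strands. The Hk2 window held 2 matches to ACGTG, and the Pfkp window held TAATCC as its single match. Over the 19 windows of the 10 genes, some of which overlap, ACGTG was in 7, from Hk2, Pfkm, Aldoa, Pkm and Ldha, and it was in 16.6% of all 32851 mouse windows. The E-box was in 2 of the 19 windows and in 6.02% of all windows, and TAATCC in 4 of the 19 and in 6.25% of all. These are matches of letters and not sites, and no binding was measured.

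The genes around these enzymes were compared in 7 lists with 86 genes, of which 79 were tested. On KO arrays 32 of these were lower and 47 higher, at a median difference of 0.028. At the stricter thresholds 0 were called and at the looser thresholds 1 was called, against 1.04% of all tested probes. At an unadjusted p under 0.05 the count was 6 genes or 7.59%, against 8.17%, and the groups did not overlap in 6 genes or 7.59%, against 6.33%. The genes not tested were well above background on at most 1 array, among them Slc2a2, Gapdhs, Pgk2, Ldhc, Pdk4 and Egln3.

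The gene called was Slc16a8, which encodes the lactate transporter MCT3 of the RPE. It gave -0.63, -1.17, -1.13 and -0.98 on HZ replicates 1 to 4 and -1.51, -1.76, -1.78 and -2.04 on KO replicates 1 to 4. Every KO array was below every HZ array, with a difference of -0.79 (standard error 0.16, adjusted p = 0.334). It was no longer past the looser thresholds without a filter on dim probes (adjusted p = 0.679), nor with any of 5 arrays left out in turn, HZ replicates 1 and 3 and KO replicates 2, 3 and 4, although the difference stayed between -0.88 and -0.62 in all 18 alternatives. Slc16a8 is itself in the RPE marker list, whose other tested members were all lower on KO. Rpe65, the isomerase of the RPE, lay between -2.18 and -0.55 on HZ and between -5.03 and -2.65 on KO arrays, and the part of RPE cells in the Slc16a8 difference was not tested.

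Of 11 tested genes of glucose and lactate transport 8 were lower and 3 higher, with a median of -0.22, and 8 to 10 were lower under the other scalings. The median was -0.12 with quantile normalization and -0.14 with normexp correction. With the percentile over probes above background it was -0.26, and in the authors' values -0.21. At an unadjusted p under 0.05 in limma, against a share of 8.17% of all tested probes, 3 of the 11 were lower. Beside Slc16a8 these were Slc2a4, the insulin-responsive glucose transporter, with -0.36 (standard error 0.13), and Slc16a1, the lactate transporter MCT1, with -0.31 (standard error 0.14), and both had groups that overlapped. With normexp correction Slc2a4 differed by -0.12, with an unadjusted p over 0.05. Slc2a1, the main glucose importer of the retina and chosen after its values were seen, differed by 0.077 (standard error 0.092).

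Of 14 other glycolysis enzymes 6 were lower and 8 higher, with a median of 0.0054, and with the percentile over probes above background 8 were lower. At an unadjusted p under 0.05 limma called 0 of these, against 8.17% of all tested probes. The largest differences were those of Hkdc1 (-0.39, standard error 0.55) and Hk3 (0.31, standard error 0.30), both hexokinases with a wide spread between arrays. Hk3 ranged from 0.10 to 0.50 over the alternatives, lowest without KO replicate 1 and highest without HZ replicate 4. Without HZ replicate 2, the highest array, Hkdc1 turned to 0.092, and without KO replicate 2 it was at -0.67.

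Of 5 genes that set the level of fructose 2,6-bisphosphate, the activator of phosphofructokinase, 3 were lower and 2 higher. Pfkfb1 gave -0.74, -0.82, -0.80 and -1.13 on HZ and -0.59, -0.38, -0.47 and -0.74 on KO arrays. The groups were apart, with a difference of 0.33 (standard error 0.12, adjusted p = 0.558), but the mean over the probes of the gene differed by -0.023, and with normexp correction the difference was 0.028. Pfkfb3, an inducible member with high kinase activity, differed by -0.40 (standard error 0.29), and by -0.14 without HZ replicate 2 or -0.24 without KO replicate 4. Tigar, a phosphatase of the same sugar phosphate, differed by -0.21 (standard error 0.099), with no overlap. The groups were thus apart for 2 of the 5 genes, against 6.33% of all tested probes.

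Of 17 tested genes of the tricarboxylic acid cycle 14 were higher and 3 lower, with a median of 0.074. With quantile normalization, or with the percentile over probes above background, 5 of 17 were lower. Against 6.33% of all tested probes, the groups did not overlap for 3 of the 17 genes. These were Mdh2, Idh3b and Ogdh. Mdh2, the mitochondrial malate dehydrogenase, differed by 0.32 (standard error 0.11, adjusted p = 0.518), and by 0.033 with normexp correction. Idh3b, a subunit of isocitrate dehydrogenase, differed by 0.25 (standard error 0.088), and Ogdh, a subunit of oxoglutarate dehydrogenase, by 0.15 (standard error 0.078). Suclg2 had the largest difference (0.50, standard error 0.31), was well above background on 5 arrays and overlapped. It was at 0.26 without KO replicate 1 and at 0.097 with normexp correction.

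Of 13 genes of pyruvate entry into mitochondria 6 were lower and 7 higher, led by Pdk2, a kinase that inhibits pyruvate dehydrogenase (0.24, standard error 0.12), and Dld, a subunit of the same complex (-0.13, standard error 0.12, and -0.012 without KO replicate 1). With the percentile over probes above background 9 of 13 were lower. Of 7 genes of the pentose phosphate pathway 2 were lower and 5 higher, from -0.17 for Rpe, an epimerase, to 0.16 for Pgls, a lactonase. Without KO replicate 2 Rpe was at -0.065, without KO replicate 1 it was at -0.28, and without HZ replicate 4 Pgls was at 0.053. Of 12 hypoxia-induced genes outside glycolysis 4 were lower and 8 higher, from -0.34 for Ndrg1 to 0.56 for Car9, a carbonic anhydrase that was well above background on 7 arrays. Ndrg1 was at -0.12 without KO replicate 3, and Car9 at 0.87 without HZ replicate 1 and at 0.24 with normexp correction. In the pyruvate, pentose and hypoxia lists limma called 0 genes at an unadjusted p under 0.05 in the main fit. Of all tested probes 8.17% were called at that level. Of the genes named from these lists, Pdk2 was under 0.05 with the replicate block and without HZ replicate 2. Car9 was under 0.05 without HZ replicate 1, and Rpe without KO replicate 1.

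**Figure D5:**
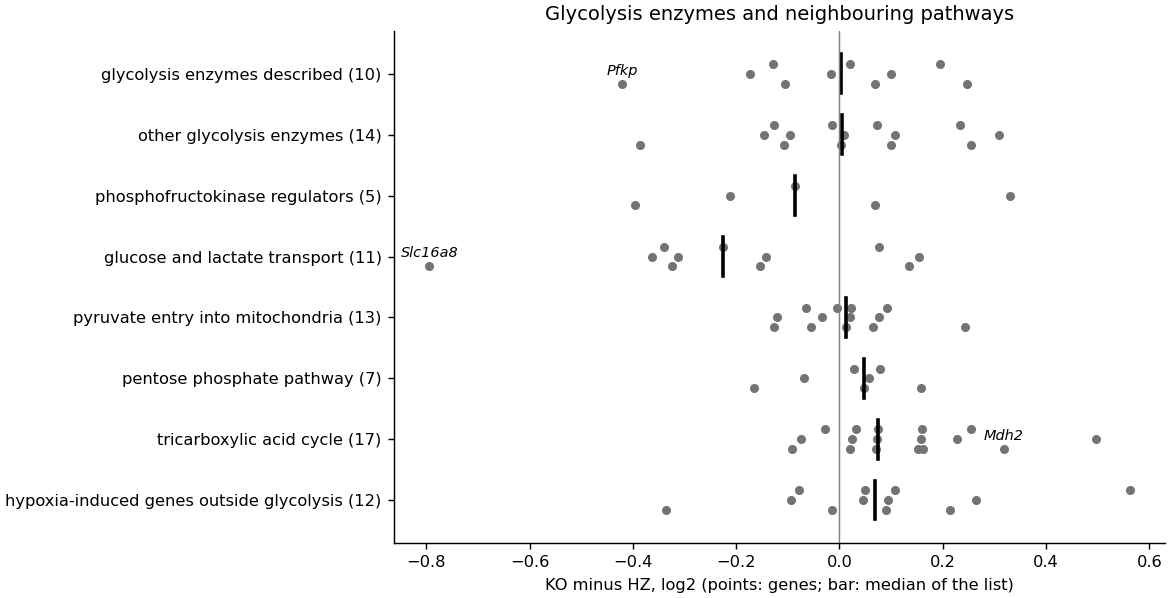
The x axis gives the log2 difference, KO minus HZ, of each tested gene, grouped on the y axis by list with the number of genes, and the vertical bars are the medians. The glycolysis genes lay between -0.42 and 0.25 around a median of 0.0026, and the lowest point among all lists was Slc16a8 at -0.79.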

How the data were processed

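RNA of CD73+ cells from P8 retina was labelled with Cy3 and hybridized to 8 single-color SurePrint G3 mouse microarrays on the same slide. As signal intensity, the authors deposited the processed, background-subtracted value that Agilent Feature Extraction 10.7.1.1 gave each spot, with its marks for outliers. Their deposited log2 values, made in GeneSpring with a 75 percentile shift, have each probe centred on its median over the arrays and served as an alternative. Columns of other kinds deposited with them (probe names, accessions, flags and slide position) were used as given.

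The log2 intensity minus the 75th percentile of each array was computed, outlier spots were left out (of the spots of the 10 genes, 2 readings, both on the Aldoc probes) and spots of a probe were averaged. Signal was well above background for 59.5% to 64.6% of the probes of an array, the 75th percentile was between 882 and 1024 intensity units, and 0 spots were saturated. Probes entered the test with signal well above background on 4 or more arrays and 3 or more values per group. Groups came from the labels, and differences were tested two-sided in limma 3.58.1 (lmFit, eBayes; R 4.3.3 with the package data.table, version 1.17.8), with Benjamini-Hochberg adjustment over the 34306 tested probes. Isozyme pairs were compared with exact permutation tests. The labels do not tell whether arrays came from separate animals, so p-values measure the spread between these samples, which may be technical. The number of arrays limits the precision, and the fit was tested on simulated data.

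Symbols came from matching the accession of a probe to a RefSeq gene table of GRCm38.p6, which 32994 of 56605 probes did. A gene is reported by its tested probe with the highest mean. The members and gene lists were chosen with earlier results of these data known. Named are the 10 members, and in each list the 2 tested genes with the largest difference and any past a threshold, the genes defining marker lists, Lpcat1, and the 3 genes most like Hk2 and Ldha. Other genes of the lists are given by counts, and some items are not reported here.

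Arrays that share a replicate number deviated together from their group means, with r of 0.16 to 0.34, above 0.1 in 4 of 4 pairs, while arrays of different numbers had r of -0.34 to 0.12. The numbers, which are also the slide columns, thus paired the arrays. The main fit did not use this pairing, since the methods name unpaired tests. Unless the replicate block is named, standard errors, intervals and p-values are unpaired. Alternatives were quantile normalization, normexp on the median signal (offset 50), the percentile taken over probes above background, the authors' values, other filters on dim probes, trend and robust eBayes, unpaired tests per probe as in the methods, the replicate block, the mean of the probes of a gene and each array left out. Plots were drawn with matplotlib 3.10.9 and pandas 2.3.3.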

Additional observations from a re-analysis of the deposited data

Results flagged for a closer look

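In groups of 4 arrays, 8 of 102 examined had a highest or lowest array set apart from the rest by Dixon's test, where 5.10 are expected by chance. Pfkp was at 1.22 on KO replicate 3, with the other KO arrays between 1.72 and 1.80. Ldhb was at 2.48 on KO replicate 1, with the others between 3.40 and 3.54. Pfkp and Ldhb thus each had a single KO array apart. Dld, the dehydrogenase subunit of pyruvate entry, was at 1.89 on KO replicate 1, with the others between 2.32 and 2.38. Nt5e, which encodes the CD73 used for isolation, was at 4.05 on KO replicate 1, with the others between 4.25 and 4.29. Hk2 minus Hk1 was at -6.79 on HZ replicate 4, with the others between -7.00 and -6.97. Ldhb minus Ldha was at -2.67 on HZ replicate 2, with the others between -3.31 and -3.21. The Müller glia and astrocyte marker score was 0.40 on KO replicate 2, with the others between -0.27 and -0.15. The red blood cell marker score was 0.26 on HZ replicate 1, with the others between -1.23 and -1.04.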

How the results depend on the processing

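None of the 10 glycolysis genes passed the looser thresholds under any of 18 alternatives, and the Pfkp difference lay between -0.48 and -0.28 with an adjusted p of 0.344 to 0.902. Its unadjusted p was over 0.05 with normexp and with the mean of the probes of a gene. The same held when HZ replicate 2, when HZ replicate 4 or when KO replicate 3 was left out. The count of these genes at an unadjusted p under 0.05 was thus 0 with normexp and 0 with the mean of probes, and with each array left out it was 0 to 2. It was 2 with the replicate block and 2 without KO replicate 2 (Pfkp with Hk2).

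Quantile normalization gave -0.24 for Aldoc minus Aldoa and 1 probe of all past the stricter thresholds. Normexp gave 17 such probes, -0.20 for Aldoc minus Aldoa, -0.26 for Pfkp minus Pfkm, -0.13 for Pkm and 0.036 for Dld. Trend and robust eBayes gave 3 such probes, and the unpaired tests of the methods gave 2. With the percentile over probes above background Aldoa differed by -0.0095, and in the authors' values Pfkm differed by 0.00091. The mean of the probes of a gene gave -0.27 for Pfkp minus Pfkm and -0.023 for Pfkfb1. Without a filter on dim probes 41 probes passed the looser thresholds, and 0 genes of the pathway lists. With the replicate block 1167 probes passed them, and Pfkp minus Pfkm kept its -0.40 at an exact p of 0.125. The block changed no other call on the glycolysis genes or the pathway lists at those thresholds.

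When single arrays were left out, 0 to 1714 probes of all passed the looser thresholds. The count was 0 without HZ replicate 3, also 0 without KO replicate 3 and without KO replicate 4, 1 without HZ replicate 1 and 1714 without HZ replicate 2. It was 57 without KO replicate 2 and 197 without KO replicate 1. They passed 0 to 2 genes of the pathway lists. At an unadjusted p under 0.05 limma called 1998 to 4985 probes. The differences ranged from -0.0016 to 0.18 for Hk1, from -0.068 to 0.039 for Pfkm, from -0.016 to 0.051 for Aldoa, from -0.28 to 0.076 for Ldhb and from -0.67 to 0.092 for Hkdc1. The isozyme differences ranged from -0.46 to -0.29 for Pfkp minus Pfkm (exact p = 0.0571 without HZ replicate 4 and without KO replicate 3), from -0.19 to -0.11 for Aldoc minus Aldoa and from -0.23 to 0.25 for Ldhb minus Ldha. Suclg2 and Car9 gave no value under a filter for signal well above background on all 8 arrays. The causes were not tested. With 4 arrays a group, the 95% confidence intervals of the glycolysis genes reached from -0.78 to 0.66, and differences within the interval of a gene could not be resolved.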
